A study of Mus musculus with 9 samples.

Results

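Blood monocytes of the mouse fall into classical cells, which carry much Ly6C and enter inflamed tissue, and nonclassical cells, which carry little Ly6C and patrol the vessel wall. The present analysis followed 9 genes named for these cells among the 50559 genes counted in each library. Classical genes were Ly6c2, Chil3, Plac8, Vcan, Hp and Ms4a4c (6 genes), and nonclassical genes were Treml4, Ace and Spn (3 genes). Members were taken by symbol, and all 9 were found in every library and passed the filter on low counts, as did 16618 genes in all.

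RNA came from myeloid cells sorted as CD45+CD11b+ from the quadriceps of mdx mice, which lack dystrophin and model Duchenne muscular dystrophy. All mice were 4.5 weeks old and had been treated for 7 days with vehicle, with the mineralocorticoid receptor antagonist spironolactone, or with prednisolone, a glucocorticoid receptor agonist. Each group had 3 libraries, each from a pool of 3 mice, and both sexes were used. The gate does not separate monocytes from macrophages, neutrophils or eosinophils, so that each value is a level in a mixture. The genes of both sort markers, Itgam (CD11b) and Ptprc (CD45), were present in every library, with a summed level of 1523 to 2146 CPM (counts scaled to the size of the library). Itgam itself was lower with spironolactone than with prednisolone (1044.2 and 1406.9 CPM, log2 fold change -0.43 ± 0.11, edgeR adjusted P = 0.0353, no overlap). That call was lost without spironolactone replicate 1 or 3 or any 1 prednisolone library (0.0631 to 0.146) and with an Xist term (0.0596), and its part in the levels of the monocyte genes was not tested.

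The libraries held 31469815 to 32943512 counts on genes each. A gene at 1 CPM therefore has about 32 counts, and the lowest value of any of the 9 genes was 9.37 CPM. No pair of libraries of a group agreed within sampling noise (chi-square per degree of freedom from 19.7 to 63.8), so that each was counted as a separate sample. For each comparison a two-sided quasi-likelihood test was taken from a single edgeR fit of the 9 libraries. The P values were adjusted by Benjamini-Hochberg over the 16618 genes, and a gene was called at an adjusted P under 0.05. Levels are CPM with library sizes adjusted by the trimmed mean of M values (TMM), and changes are log2 fold changes ± SE from the fit. The SE was derived from the test, as the absolute change divided by the square root of its F statistic. Replicates are pools of animals, and the P values measure the spread between these pools.

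Monocytes leave the bone marrow as classical cells under the control of transcription factors such as PU.1, C/EBP and IRF8. They enter tissue through the chemokine receptor CCR2 and there become macrophages. Some convert in blood to nonclassical cells, a step that needs NR4A1 and C/EBPβ. As they mature into tissue macrophages, Ly6C and other classical products are lost.

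Promoter sequences are shown for the genes with the clearest differences and for the anchor of the classical group, since both drugs act through receptors that bind DNA. Each runs 5′ to 3′ on the strand of the gene and comes from the GRCm39 genome. It ends 1 base before the annotated start of the gene's main transcript (Ly6c2: 87 bases before it, at an exon of another transcript). For Ly6c2 that start (74983827) lies inside the gene, which begins at 74988467 on the minus strand. Capitals mark a match to GAGGAAGT, a motif of PU.1.

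Ly6c2: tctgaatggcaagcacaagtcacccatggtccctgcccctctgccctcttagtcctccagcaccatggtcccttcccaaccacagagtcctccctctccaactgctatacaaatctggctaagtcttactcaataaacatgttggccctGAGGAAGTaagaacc
Chil3: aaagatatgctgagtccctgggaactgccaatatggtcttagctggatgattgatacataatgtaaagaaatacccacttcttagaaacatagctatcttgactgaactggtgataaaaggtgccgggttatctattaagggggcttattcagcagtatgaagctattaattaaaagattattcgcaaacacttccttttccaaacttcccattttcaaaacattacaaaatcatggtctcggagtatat
Ace: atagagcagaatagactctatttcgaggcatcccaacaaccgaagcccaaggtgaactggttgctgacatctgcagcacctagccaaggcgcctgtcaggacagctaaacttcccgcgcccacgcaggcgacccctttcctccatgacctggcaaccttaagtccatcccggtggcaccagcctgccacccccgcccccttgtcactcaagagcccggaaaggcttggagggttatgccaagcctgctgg
Spn: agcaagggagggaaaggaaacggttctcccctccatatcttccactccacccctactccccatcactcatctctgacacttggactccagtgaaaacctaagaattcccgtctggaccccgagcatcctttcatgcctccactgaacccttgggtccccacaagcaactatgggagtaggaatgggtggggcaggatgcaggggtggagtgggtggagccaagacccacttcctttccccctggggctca

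These windows are 15:74983914-74984077 for Ly6c2, 3:106074881-106075130 for Chil3, 11:105858219-105858468 for Ace and 7:126736996-126737245 for Spn. Both strands of the 250 bases before the start of the main transcript of each of the 9 genes were searched for 5 motifs. The windows of Ly6c2 and Ms4a4c lie inside their genes. Only 1 match was found, the PU.1 letters 101 bases before the start of the main Ly6c2 transcript, on the strand of the gene. The same letters are found in 2.08% of 21770 promoter windows of that length. The others searched were TTGCNNAA for C/EBP (9.34% of windows), GAAA, 2 bases of any kind and GAAA for interferon-regulated genes (3.32%), AAAGGTCA for NR4A (1.19%), and AGAACA, 3 bases of any kind and TGTTCT, the palindrome bound by both steroid receptors (0 of the 21770 windows). The match overlapped no other motif. A match is a run of letters and not a binding site.

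Levels of different genes were compared per length, as TPM (counts divided by the summed exon length of each gene in GENCODE and scaled within the library). In vehicle libraries Chil3 was highest, at 1490.3 ± 619 TPM (SD, n = 3), and its range did not overlap that of the next gene, Ms4a4c (455 ± 183 TPM). Ly6c2 (371 ± 164 TPM), Hp (258 ± 137 TPM), Plac8 (122 ± 57 TPM) and Vcan (89.8 ± 45.4 TPM) followed, and each of these neighbours overlapped in range with the one before it. The nonclassical genes Spn (34.4 ± 4.2 TPM), Treml4 (32.9 ± 9.67 TPM) and Ace (31.1 ± 6.71 TPM) had the lowest means and could not be ordered among themselves. Vcan (39.5 to 128 TPM) did not overlap with Spn (up to 39.2 TPM) or Ace (up to 38.8 TPM) but did with Treml4 (22 to 40.1 TPM). The order depends on the length used. Over the main transcript alone, an alternative added after the data were seen, Ly6c2 (837 in place of 3056 bases) came to 1355.7 ± 599 TPM and Plac8 (744 in place of 4404 bases) to 724 ± 337 TPM. Ly6c2 then overlapped with Chil3 (1694.6 ± 704 TPM), both lay above Ms4a4c (487 ± 196 TPM) and Hp (327 ± 173 TPM) on average, and the lowest Vcan library (51.8 TPM) lay above every vehicle value of the nonclassical genes (highest 49 TPM).

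**Figure D1:**
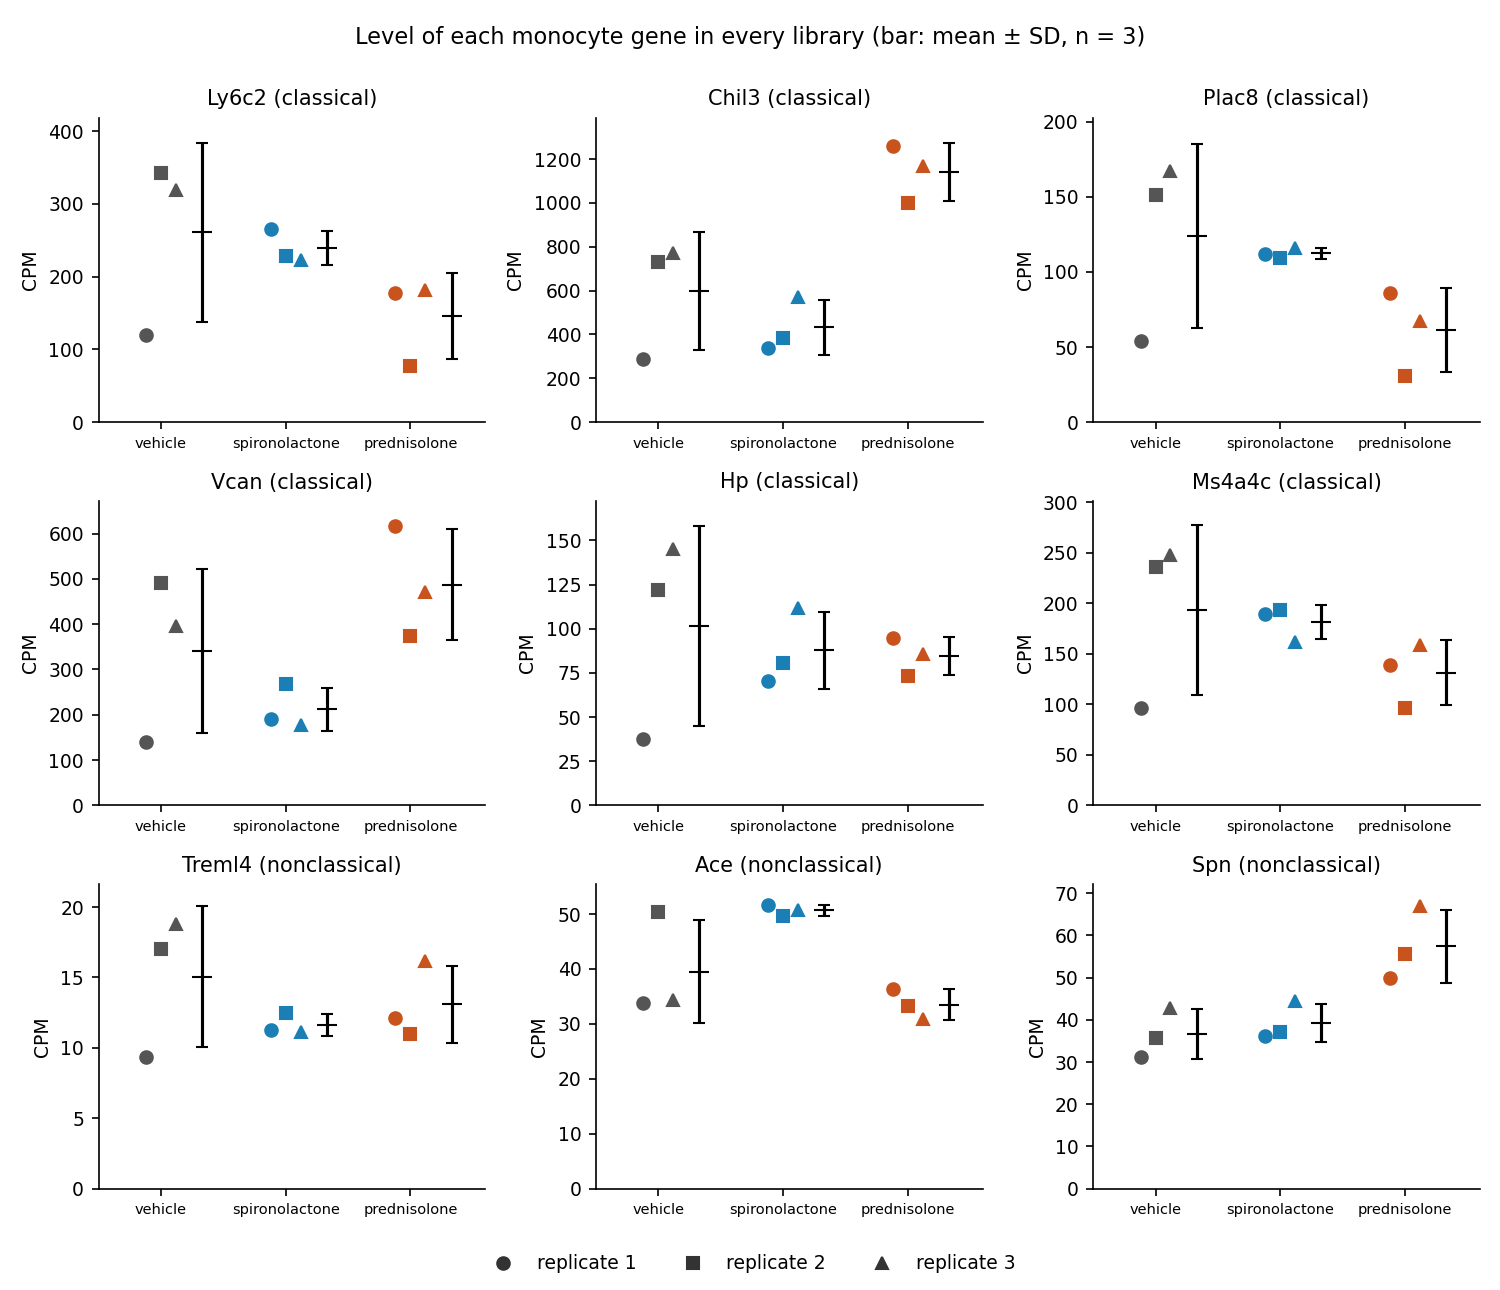
Level of each of the 9 genes in CPM in every library, with the mean ± SD of each group (n = 3) and a symbol for each replicate number. Vehicle replicate 1 is the lowest vehicle library for each of the 9 genes. Chil3 and Spn are higher in all prednisolone than in all vehicle libraries, and Ace is higher in all spironolactone than in all prednisolone libraries.

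Among the classical genes, no difference between a drug and vehicle was called. The largest changes in the fit with prednisolone were those of Plac8 and Ly6c2, at 0.495 and 0.559 times the vehicle level, and that of Chil3, at 1.91 times. Of the 9 genes only the nonclassical Spn was called against vehicle, with prednisolone, at 1.57 times the vehicle level. That is 1 of 9 genes, where 1.76% of all genes tested were called (293 of 16618), and 2 of the 9 (Chil3 and Spn) had an unadjusted P under 0.05, as did 14.2% of all genes. With spironolactone none of the 9 was called, where 0.0181% of all genes were (3 of 16618), and 1 of the 9 (Ace) had an unadjusted P under 0.05, where 9.29% of all genes did. In these bulk samples fewer cells of a type and less RNA per cell cannot be told apart.

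Ly6c2 encodes a Ly6C surface protein, the marker that defines classical monocytes. It lies at 15:74980003-74988467 on the minus strand of GRCm39. Its level was 120, 343 and 319 CPM in vehicle replicates 1 to 3, 266, 229 and 223 CPM in spironolactone libraries, and 178, 77.6 and 181 CPM in prednisolone libraries. Vehicle replicates 2 and 3 lay above all treated libraries, but replicate 1 lay within the prednisolone range, so that neither drug separated from vehicle. The change was -0.84 ± 0.47 with prednisolone (edgeR adjusted P = 0.5) and -0.12 ± 0.47 with spironolactone (edgeR adjusted P = 0.968). Leaving out 1 library gave -1.19 to -0.54 with prednisolone. Of all runs of 100 bases in its main transcript, 15.4% also occur in Ly6c1, its near-identical neighbour, so reads may be split between them. Ly6c1 itself was counted at 9.69, 16.9 and 10 CPM on average in vehicle, spironolactone and prednisolone, well under Ly6c2.

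Plac8 encodes a small cysteine-rich protein abundant in classical monocytes and other immune cells. Located at 5:100701591-100720111, it had 53.7, 151 and 167 CPM in the vehicle libraries, 112, 109 and 116 CPM with spironolactone, and 85.9, 30.9 and 67.1 CPM with prednisolone. All spironolactone libraries lay within the vehicle range, as did 2 of the 3 prednisolone libraries, and prednisolone replicate 2 was below all others. The change was -1.02 ± 0.51 with prednisolone (edgeR adjusted P = 0.447) and -0.14 ± 0.50 with spironolactone (edgeR adjusted P = 0.967).

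Ms4a4c encodes a membrane protein with several transmembrane segments. It lies at 19:11382131-11404610 and had 96.8, 236 and 248 CPM in vehicle, 189, 193 and 162 CPM in spironolactone, and 139, 96.2 and 159 CPM in prednisolone libraries. The order of the libraries was close to that of Ly6c2 and Plac8, with vehicle replicate 1 and prednisolone replicate 2 lowest. The change was -0.56 ± 0.36 with prednisolone (edgeR adjusted P = 0.555) and -0.096 ± 0.35 with spironolactone (edgeR adjusted P = 0.967). Without vehicle replicate 1 the change with prednisolone was -0.88 ± 0.18 and was called (edgeR adjusted P = 0.026). Of its runs of 100 bases, 1.72% also occur in Ms4a4b.

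Chil3 encodes Ym1, a chitinase-like secreted protein made by classical monocytes and also by neutrophils and some macrophages. It lies at 3:106054870-106074880. Its level was 290, 732 and 774 CPM in vehicle, 337, 386 and 573 CPM in spironolactone, and 1258.8, 999 and 1166.7 CPM in prednisolone libraries. Every prednisolone library was above every vehicle and every spironolactone library, and the spironolactone libraries lay within the vehicle range. The change was 0.93 ± 0.38 with prednisolone (edgeR unadjusted P = 0.0411, adjusted P = 0.321) and -0.47 ± 0.37 with spironolactone (edgeR adjusted P = 0.77). Without vehicle replicate 1 the prednisolone value was 0.60 ± 0.21 (edgeR adjusted P = 0.15). Leaving out 1 library gave -0.80 to -0.25 with spironolactone. Of its runs of 100 bases, 5.42% also occur in Chil4 or the pseudogene Gm6522, which were counted at 0.316 to 1.16 CPM (group means of Chil4) and at most 0.79 CPM (Gm6522).

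Vcan encodes versican, a large matrix proteoglycan that monocytes release and that fibroblasts make too. Located at 13:89803431-89890814, it had 140, 490 and 395 CPM in vehicle, 191, 267 and 177 CPM in spironolactone, and 616, 374 and 472 CPM in prednisolone libraries. Prednisolone replicate 1 was the highest library and vehicle replicate 1 the lowest, and both drugs overlapped with vehicle. The change was 0.51 ± 0.46 with prednisolone (edgeR adjusted P = 0.693) and -0.69 ± 0.46 with spironolactone (edgeR adjusted P = 0.725). Without vehicle replicate 1 it was 0.14 ± 0.25 with prednisolone and -1.06 ± 0.25 with spironolactone (edgeR adjusted P = 0.833 and 0.198).

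Hp encodes haptoglobin, which binds free hemoglobin and is made in liver, monocytes and neutrophils. It lies at 8:110301759-110305804. Hp had 37.6, 122 and 145 CPM in vehicle, 70.4, 80.8 and 112 CPM in spironolactone, and 94.5, 73 and 85.7 CPM in prednisolone libraries. All 6 treated libraries lay within the vehicle range. The change was -0.26 ± 0.47 with prednisolone and -0.21 ± 0.47 with spironolactone (edgeR adjusted P = 0.865 and 0.946), and the first turned to 0.087 without vehicle replicate 3.

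The vehicle group was the most uneven for the classical genes. The ratio of the highest to the lowest vehicle library was 2.56 for Ms4a4c, 2.87 for Ly6c2, 2.66 for Chil3, 3.11 for Plac8, 3.51 for Vcan and 3.84 for Hp. In each case replicate 1 was lowest, at 0.282 (Hp) to 0.4 (Ms4a4c) of the mean of the other vehicle libraries. It was also lowest for the nonclassical Treml4, Ace and Spn, at 0.524, 0.8 and 0.794 of that mean. For the classical genes the SD of log2 CPM within vehicle lay at the 91.2 (Ms4a4c) to 96 (Hp) percentile of all genes tested. Within vehicle the SD was at the 53.3 percentile for Spn, 66.7 for Ace and 83.2 for Treml4. Pooled over the 3 groups, as in the fit, the SD lay at the 79.5 (Ms4a4c) to 89.1 (Plac8) percentile for the classical genes. The SE of the changes was 0.35 to 0.51 for the 6 classical genes and 0.13 to 0.23 for the 3 nonclassical genes.

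Treml4 encodes a receptor of the TREM family carried by nonclassical monocytes and some splenic macrophages. It lies at 17:48571323-48582388. It was the lowest of the 9 in CPM, at 9.37, 17 and 18.8 CPM in vehicle, 11.3, 12.5 and 11.1 CPM in spironolactone, and 12.1, 11 and 16.2 CPM in prednisolone libraries. Vehicle replicate 1 was lowest, and all 6 treated libraries lay within the vehicle range. The change was -0.20 ± 0.22 with prednisolone (edgeR adjusted P = 0.765) and -0.37 ± 0.23 with spironolactone (edgeR adjusted P = 0.665). When 1 library was left out, these ranged from -0.45 to -0.0037 and from -0.62 to -0.18.

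Ace encodes angiotensin-converting enzyme, which makes angiotensin II and is found on nonclassical monocytes and on endothelium. It lies at 11:105858469-105880790. Ace had 33.8, 50.3 and 34.4 CPM in vehicle, 51.7, 49.6 and 50.7 CPM in spironolactone, and 36.4, 33.2 and 30.8 CPM in prednisolone libraries. The spironolactone libraries lay close together, and vehicle replicate 2 lay among them while the other two vehicle libraries lay with prednisolone. The change was 0.36 ± 0.13 with spironolactone (edgeR unadjusted P = 0.0189, adjusted P = 0.421) and -0.24 ± 0.14 with prednisolone (edgeR adjusted P = 0.466). When 1 library was left out, these ranged from 0.26 to 0.57 and from -0.34 to -0.027. Exons of Ace share 952 bases with Gm11651 on the opposite strand, which was counted at 0 in all 9 libraries. Whether reads were counted by strand is not given in the sources used here.

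Spn encodes CD43 (leukosialin), a sialoglycoprotein that is high on nonclassical monocytes and is also carried by lymphocytes and neutrophils. It lies at 7:126731404-126736995. Its level was 31.2, 35.7 and 42.9 CPM in vehicle, 36.1, 37.1 and 44.5 CPM in spironolactone, and 49.9, 55.5 and 66.9 CPM in prednisolone libraries. All prednisolone libraries were above all libraries of the other two groups. Spn rose with prednisolone, by 0.65 ± 0.14 (edgeR adjusted P = 0.0286), and the change with spironolactone was 0.10 ± 0.14 (edgeR adjusted P = 0.886). The call with prednisolone was kept in 10 of 10 other tools and settings (highest adjusted P = 0.0491) and in 6 of the 9 fits that each left out 1 library. It was lost without vehicle replicate 2 (edgeR adjusted P = 0.107), prednisolone replicate 2 (0.117) or prednisolone replicate 3 (0.119).

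**Figure D2:**
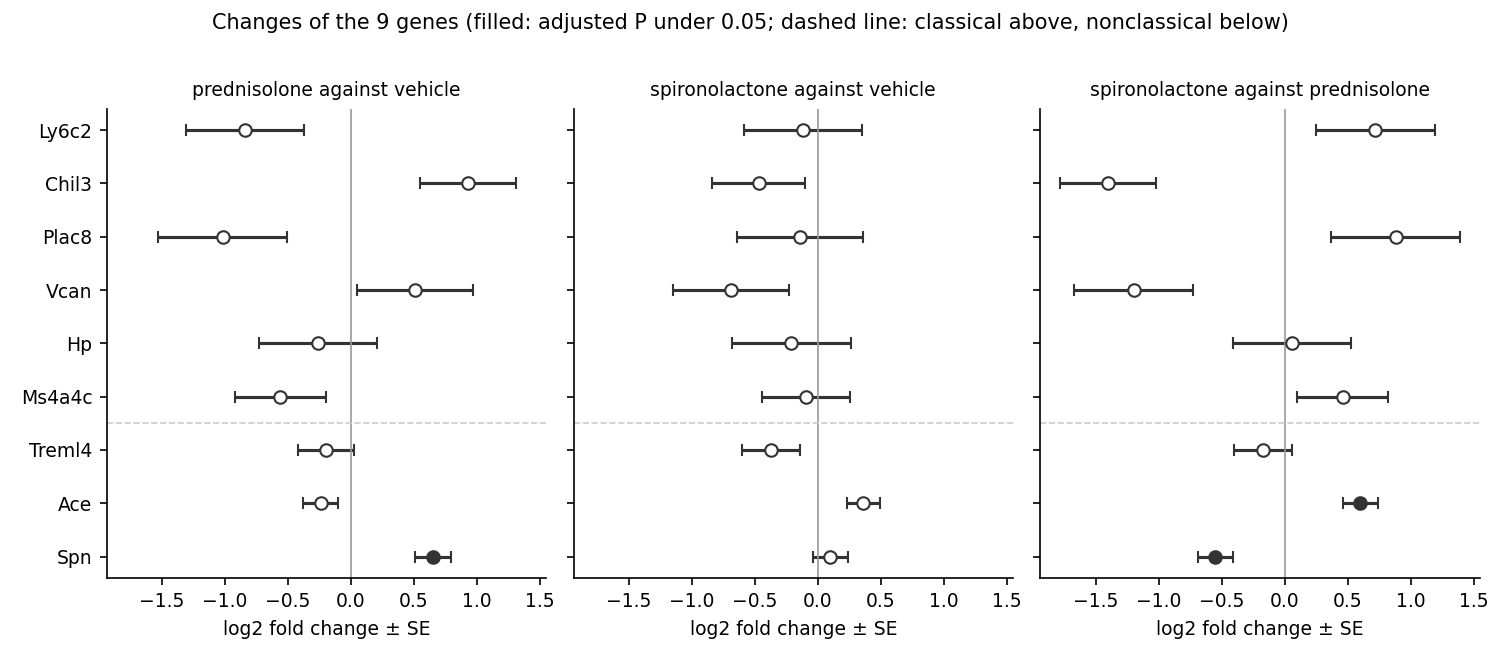
Log2 fold change ± SE of the 9 genes in the 3 comparisons, with filled points for genes called at an adjusted P under 0.05. The bars of the 6 classical genes are wider than those of the nonclassical genes, and filled points stand at Spn (0.65) with prednisolone against vehicle and at Ace (0.60) and Spn (-0.55) with spironolactone against prednisolone.

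When the drugs were compared with each other, 2 of the 9 genes were called, where 5.17% of all genes were, and 4 of the 9 (Chil3, Vcan, Ace and Spn) had an unadjusted P under 0.05, as did 22.5% of all genes. Ace was higher with spironolactone than with prednisolone, with a change of 0.60 ± 0.14 (1.51 times, edgeR adjusted P = 0.0238), and Spn was lower, with a change of -0.55 ± 0.14 (0.683 times, edgeR adjusted P = 0.0344). The libraries of the 2 groups did not overlap for either gene. Both calls were kept in 10 of 10 other tools and settings, but only in 3 of 9 (Ace) and 5 of 9 (Spn) fits without 1 library. The Ace call was lost without any 1 of the 6 libraries of the drugs (edgeR adjusted P = 0.0534 to 0.0939), and the Spn call without spironolactone replicate 1 or 2 or prednisolone replicate 2 or 3 (0.0877 to 0.135).

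The classical genes had changes of both signs in this comparison, and none of the 6 was called by edgeR. Chil3 was at 0.378 times its prednisolone level with spironolactone (-1.40 ± 0.38, edgeR unadjusted P = 0.00723, adjusted P = 0.0833) and Vcan at 0.434 times (-1.20 ± 0.47, edgeR adjusted P = 0.191). Both were called with DESeq2, with edgeR on the 2 groups alone, without a filter on low counts, and without vehicle replicate 1 (edgeR adjusted P = 0.00289 for Chil3 and 0.0189 for Vcan), and Chil3 also with limma-voom and with robust=FALSE. In the other direction, Ly6c2 was 0.72 ± 0.47 higher with spironolactone, Plac8 0.88 ± 0.51 and Ms4a4c 0.46 ± 0.36, with edgeR adjusted P of 0.43, 0.371 and 0.505. Leaving out 1 library gave 0.41 to 0.90, 0.55 to 1.20 and 0.28 to 0.62 in that order. Hp (0.058 ± 0.47) and Treml4 (-0.17 ± 0.23) overlapped between the drugs (edgeR adjusted P = 0.967 and 0.716).

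Libraries of the 2 drugs did not overlap for 7 of the 9 genes, that is, for all but Hp and Treml4. This holds for 30.3% of all genes tested. Against vehicle, the prednisolone libraries did not overlap for 2 of the 9 (Chil3 and Spn), where 19.7% of all genes did not. The spironolactone libraries overlapped with vehicle for each of the 9, and 13.5% of all genes did not overlap.

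The 6 classical genes did not keep a constant proportion to each other. A sum over them was 738, 2073.5 and 2047.6 CPM in vehicle, 1164.7, 1265 and 1362.7 CPM in spironolactone, and 2372.2, 1650.1 and 2131.5 CPM in prednisolone libraries. Chil3 was the largest part of it in every library. With prednisolone against vehicle, Chil3 and Vcan had positive changes, and none of the 6 was called. The most negative changes were those of Ly6c2, Plac8 and Ms4a4c. Their sum was 578 ± 267 CPM in vehicle, 533 ± 33.1 CPM in spironolactone and 338 ± 116 CPM in prednisolone. For this subset the prednisolone libraries (205 to 407 CPM) lay below the spironolactone libraries (501 to 567 CPM). The subset was chosen after the values were seen, and each of its genes alone had no overlap between the drugs, so its sum adds no support. For the sum of all classical genes but Chil3, also chosen then, the prednisolone libraries (651 to 1113.4 CPM) overlapped with the spironolactone libraries (790 to 879 CPM). The nonclassical sum was 91.1 ± 14.9, 102 ± 4.06 and 104 ± 8.59 CPM in vehicle, spironolactone and prednisolone, with the groups overlapping.

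Ratios within a library, chosen after the values were seen and given without a test, set the genes apart. Chil3 per Ly6c2 was 2.13 to 2.43 in vehicle, 1.27 to 2.57 in spironolactone and 6.45 to 12.9 in prednisolone libraries. Vcan per Ly6c2 was 1.17 to 1.43, 0.718 to 1.16 and 2.61 to 4.82 in that order. The ratio was high in every prednisolone library for both genes, and vehicle replicate 1, although low in each gene, had ratios like those of the other vehicle libraries. Plac8 per Ly6c2 stayed between 0.371 and 0.523 in all 9 libraries. Ms4a4c per Ly6c2 was 0.688 to 0.842 in vehicle and spironolactone libraries and 0.781 to 1.24 with prednisolone, and Hp per Ly6c2 was 0.265 to 0.505 and 0.474 to 0.941. Spn per Ace was 0.709 to 1.25 in vehicle, 0.698 to 0.877 in spironolactone and 1.37 to 2.18 in prednisolone libraries.

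**Figure D3:**
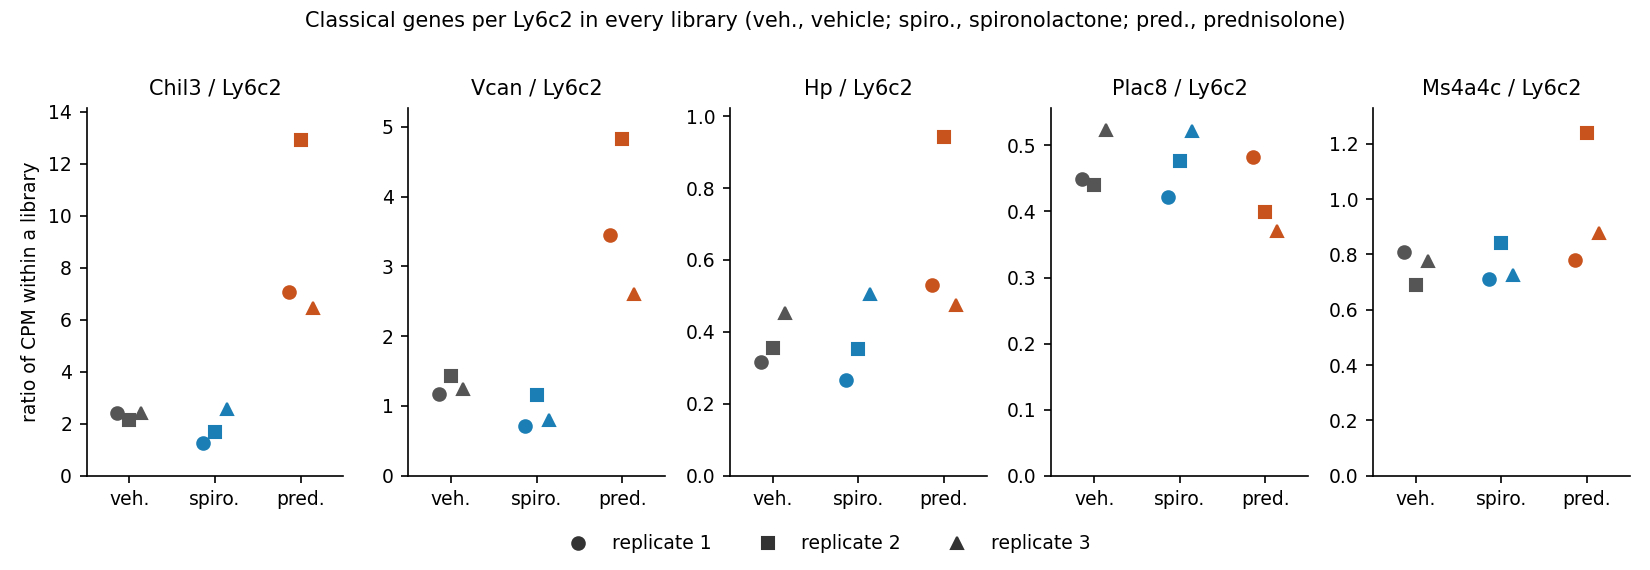
Ratio of the CPM of 5 classical genes to that of Ly6c2 within each library, by group, with a symbol for each replicate number. Chil3 and Vcan per Ly6c2 are higher in each prednisolone library (from 6.45 and 2.61) than in any other library, whereas Plac8 per Ly6c2 stays between 0.371 and 0.523.

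The pattern over the 9 libraries, as Pearson r of log2 CPM among 13240 genes with a mean of at least 1 CPM, was compared as a description. The genes most like Ly6c2 were Tnfsf13os (r = 0.982), Plac8 (0.98), Irf7 (0.976), Zbp1 (0.961) and Ms4a4c (0.959). Tnfsf13os was under 4 CPM in every library, and Irf7 and Zbp1 are induced by interferon. Of the other members, Hp had r = 0.648 with Ly6c2, Treml4 0.633, Ace 0.579, Vcan 0.129, Chil3 -0.123 and Spn -0.33, so that the order did not follow the classical and nonclassical classes. The genes most like Treml4 were Gm9791 (0.974), Rpl36a-ps1 (0.94), Actr3-ps (0.93), Gm21188 (0.929) and Mefv (0.924), of which Gm9791 and Rpl36a-ps1 were under 4 CPM. Among the members, Treml4 had r = 0.764 with Hp, 0.763 with Ms4a4c, 0.664 with Vcan, 0.567 with Plac8, 0.49 with Chil3, 0.27 with Spn and -0.1 with Ace. The points are the same 9 libraries for each gene and include the differences between groups.

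Irf7, the master regulator of interferon responses, was picked above for its likeness to Ly6c2, so that its levels restate that choice. Irf7 had 274, 499 and 579 CPM in vehicle, 453, 453 and 432 CPM in spironolactone, and 320, 192 and 384 CPM in prednisolone libraries. The lowest library of each of the vehicle and prednisolone groups was the same as for Ly6c2. A list of 13 interferon-stimulated genes included Irf7 as its most abundant gene. The list had a summed level of 1297.9 to 2521.6 CPM in vehicle, 1585.6 to 2155.8 CPM in spironolactone and 886 to 1563.9 CPM in prednisolone libraries. All 13 had a fold change below 0 (log2) with prednisolone (median -0.59, all genes -0.014), with 0 called by edgeR, DESeq2 or limma-voom and 2 at an unadjusted P under 0.05 (edgeR). When vehicle replicate 1 was left out, edgeR called 1 of them lower. Over all the other tools and settings the number called lower ran from 0 to 12. These include the fit without a filter on low counts, whose limit is given at the end. Their part in the levels of Ly6c2, Plac8 and Ms4a4c was not tested.

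Other genes of classical monocytes were read from a list of 17, all tested. With prednisolone 0 were called higher and 1 lower, with a median of -0.16 against -0.014 for all genes. The count was 1 higher and 2 lower with DESeq2, 4 lower without vehicle replicate 1, and 1 higher and 1 lower without vehicle replicate 2. The gene called was Cebpb, which encodes C/EBPβ, a factor named above for the step to nonclassical cells. It fell from 1203.4 ± 209 CPM in vehicle to 662 ± 89.9 CPM with prednisolone (-0.86 ± 0.15, edgeR adjusted P = 0.0108), with no overlap, and the call was lost without prednisolone replicate 2 or 3 (0.0857 and 0.0557). With spironolactone 0 were called by edgeR (4 at an unadjusted P under 0.05, 1 by DESeq2, 0 by limma-voom), and the median was -0.093 (all genes 9e-05). Between the drugs 1 was called, F13a1, the A chain of coagulation factor XIII, at 389 ± 46.9 CPM with spironolactone and 717 ± 59.7 CPM with prednisolone (-0.88 ± 0.14, edgeR adjusted P = 0.00358). Without vehicle replicate 1, and with DESeq2, 2 of the list were also called higher with spironolactone than prednisolone. Ccr2, the receptor that brings classical monocytes into tissue, was at 593, 589 and 532 CPM in vehicle, spironolactone and prednisolone, and Lyz2, lysozyme, the most abundant of the list, at 9873.8, 9535.6 and 11200 CPM, with neither called.

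A list of 19 other genes of nonclassical monocytes had 0 called by edgeR with either drug, and the median was -0.079 with prednisolone and 0.04 with spironolactone. For each drug 3 had an unadjusted P under 0.05 (edgeR), DESeq2 called 1 with prednisolone and 0 with spironolactone, and limma-voom called 0. Without vehicle replicate 1, edgeR called 1 lower with prednisolone. Between the drugs 3 were called higher with spironolactone and 0 lower, with a list median of -0.033 against 0.026 for all genes. Genes called lower numbered 2 without vehicle replicate 1 and with edgeR on the 2 groups compared, and 1 with DESeq2 and with the replicate block. The 3 called higher in the main fit were Fabp4, Gngt2 and Pou2f2. Fabp4, a fatty acid binding protein, was at 122 ± 25.1 CPM with spironolactone and 56.3 ± 12.2 CPM with prednisolone (1.12 ± 0.18, edgeR adjusted P = 0.00782). Gngt2, a G protein subunit, differed by 0.63 ± 0.14 (edgeR adjusted P = 0.0238), and Pou2f2, the transcription factor OCT2, by 0.50 ± 0.12 (edgeR adjusted P = 0.0343). Fabp4 also stands in the list of endothelial markers, and its call was kept in all 10 other settings and all 9 fits without 1 library. Gngt2 lost its call without spironolactone replicate 2 or 3 or prednisolone replicate 1 or 2 (0.0777 to 0.108), and Pou2f2 without any 1 of the 6 libraries of the drugs (0.0543 to 0.131) or with an Xist term (0.0574). Cx3cr1, the fractalkine receptor of patrolling cells, was at 229, 235 and 271 CPM in vehicle, spironolactone and prednisolone, and Cd36, a scavenger receptor, was the most abundant, at 1304.6, 1247.4 and 1371.2 CPM, with neither called. Nr4a1 was at 810, 612 and 668 CPM and was not called either (edgeR adjusted P = 0.414 with spironolactone and 0.438 with prednisolone).

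Of 15 genes of monocyte development and traffic, 2 were called lower with prednisolone, with a median of -0.32, and 1 was also called higher with DESeq2 and without vehicle replicate 1 or spironolactone replicate 1. Cxcr4, the chemokine receptor that holds monocytes in marrow, fell from 340 ± 9.61 to 233 ± 14.8 CPM (-0.54 ± 0.098, edgeR adjusted P = 0.013). Cebpa, which encodes the C/EBPα of myeloid progenitors, fell from 502 ± 22.6 to 365 ± 6.25 CPM (-0.46 ± 0.084, edgeR adjusted P = 0.0139). Cebpa was also higher with spironolactone than with prednisolone (0.46 ± 0.084, edgeR adjusted P = 0.00884), as was Irf8 (292 ± 15.5 and 214 ± 12.8 CPM, 0.45 ± 0.09, edgeR adjusted P = 0.0129). Csf1r, the M-CSF receptor and the most abundant of the list, was at 1597, 1591.5 and 1631.9 CPM in vehicle, spironolactone and prednisolone and was not called. The Cxcr4 call was lost without prednisolone replicate 1 or 2 (0.0639 and 0.101). The Cebpa call against vehicle was lost without vehicle replicate 2 or any 1 prednisolone library (0.0512 to 0.106), and that between the drugs without prednisolone replicate 2 (0.0554). Irf8 lost its call without spironolactone replicate 3 or prednisolone replicate 1 or 2 (0.0633 to 0.0773). With spironolactone 0 of the 15 were called by edgeR (4 at an unadjusted P under 0.05, 1 by DESeq2, 0 by limma-voom).

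Of 17 paralogs of the 9 genes, 13 were tested, and Ace3 and Plac8l1 had no count in any library. Against vehicle 0 were called by edgeR for either drug, with 2 at an unadjusted P under 0.05 for each, and DESeq2 called 1 with prednisolone. With vehicle replicate 1 left out, edgeR called 2 lower with prednisolone. Between the drugs, Trem2, a relative of Treml4 on tissue macrophages and the most abundant paralog, was higher with spironolactone (559 ± 13.9 and 442 ± 39.8 CPM, 0.34 ± 0.092, edgeR adjusted P = 0.0483). This call was lost in 5 of 10 other settings and in 8 of 9 fits without 1 library.

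Markers of other cells in or near the gate differed between libraries and, for some lists, between groups. Neutrophil markers (13 genes) summed to 843, 1158.3 and 5501.9 CPM in vehicle, 1551.7, 1729.2 and 4110.3 CPM in spironolactone, and 920 to 1181.5 CPM in prednisolone libraries, with 0 of 13 called by the edgeR fit of all libraries in each comparison (3, 0 and 4 at an unadjusted P under 0.05 for prednisolone, spironolactone and the 2 drugs, and 1, 0 and 2 by DESeq2). Between the drugs, 2 were called with edgeR on these groups alone or without vehicle replicate 3, and 3 with robust=FALSE. The fit without a filter on low counts called 10 lower with prednisolone than with vehicle. Between the drugs it called 9 higher with spironolactone. Vehicle replicate 3 and spironolactone replicate 3 stood high. These were the highest libraries of their groups for Chil3, Hp, Plac8 and Spn, but not in both groups for any other member. Chil3 itself was highest in the prednisolone libraries (999 to 1258.8 CPM). With prednisolone 11 of 13 neutrophil markers had a fold change below 0 against vehicle, with a median of -1.35. The sums of vehicle replicates 1 and 2 were no higher than the top of the prednisolone range. A median without vehicle replicate 3 was not taken. Eosinophil markers (6 genes, 4 tested) summed to 39.5 to 67.8, 31.8 to 51 and 17.8 to 22.8 CPM in vehicle, spironolactone and prednisolone, with 3 of 4 called lower with prednisolone than with vehicle and 3 of 4 between the drugs (1 without spironolactone replicate 2 or 3 or any 1 prednisolone library). The count against vehicle was 0 without prednisolone replicate 1 or 2, 1 without prednisolone replicate 3, and 1 with limma-voom. The part of either cell type in the levels of the monocyte genes was not tested.

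Ace is also an endothelial gene and Spn also a lymphocyte gene, and genes of both marker lists were called between the drugs. Endothelial markers (10 genes) summed to 186 to 240 CPM in vehicle, 284 to 406 CPM in spironolactone and 169 to 221 CPM in prednisolone libraries, and 5 of 10 were called higher with spironolactone than with prednisolone (2 without spironolactone replicate 3 or prednisolone replicate 2 or 3, and 8 without vehicle replicate 1). Lymphocyte and NK markers (14 genes, 12 tested) summed to 25.3 to 27, 38.5 to 46.1 and 15.6 to 24.1 CPM, with 5 of 12 called higher with spironolactone than with prednisolone (3 without prednisolone replicate 2), and Trac and Trbc2 were at 0 counts in all libraries. Endothelial markers with spironolactone against vehicle had a fold change above 0 in 10 of 10 (median 1.03), 9 at an unadjusted P under 0.05 (edgeR). The main fit called 0 of them, and the settings, with the fit without a filter on low counts among them, 0 to 9. Lymphocyte and NK markers had a fold change above 0 in 11 of 12 (median 1.06), 6 at an unadjusted P under 0.05 (edgeR). The main fit called 0, and the same settings 0 to 3. The part of endothelial RNA in the level of Ace and that of lymphocyte RNA in the level of Spn were not tested.

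Fibro-adipogenic markers (9 genes) summed to 641 to 909 CPM in vehicle, 851 to 1230.9 CPM in spironolactone and 807 to 901 CPM in prednisolone libraries. Their part in the level of Vcan was not tested. Macrophage markers (12 genes) summed to 7788.8 to 9131.9, 8975 to 9762.4 and 7217.5 to 7883.6 CPM, with 2 called higher and 2 lower when spironolactone was compared with prednisolone. None was called without spironolactone replicate 3 or prednisolone replicate 1 or 2, and the replicate block gave 1 higher and 0 lower. Dendritic markers (9 genes) summed to 70.3 to 84.1, 81.7 to 141 and 90.7 to 112 CPM, skeletal muscle markers (8 genes) to 199 to 300, 365 to 607 and 316 to 484 CPM, and erythroid markers (6 genes) to 70.3 to 135, 187 to 306 and 37.1 to 79.7 CPM. Higher with spironolactone than prednisolone were 4 of 6 erythroid markers (1 without spironolactone replicate 3, 2 without prednisolone replicate 1), 1 fibro-adipogenic marker (3 without spironolactone replicate 2, 2 without vehicle replicate 1) and 1 dendritic marker (0 without spironolactone replicate 2 or 3 or any 1 prednisolone library, and 2 without spironolactone replicate 1). Of the 7 skeletal muscle markers tested, the main edgeR fit called 0 in each comparison. Over the settings, which include the fit without a filter on low counts, up to 5, 6 and 3 were called higher for prednisolone, spironolactone and the 2 drugs. In fits without 1 library up to 1 was called higher in each comparison. The median change was 0.56 with prednisolone and 0.87 with spironolactone against vehicle and 0.28 between the drugs. An unadjusted P under 0.05 (edgeR) was found for 3, 5 and 3 of them in that order, and DESeq2 called 1, 4 and 2.

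**Figure D4:**
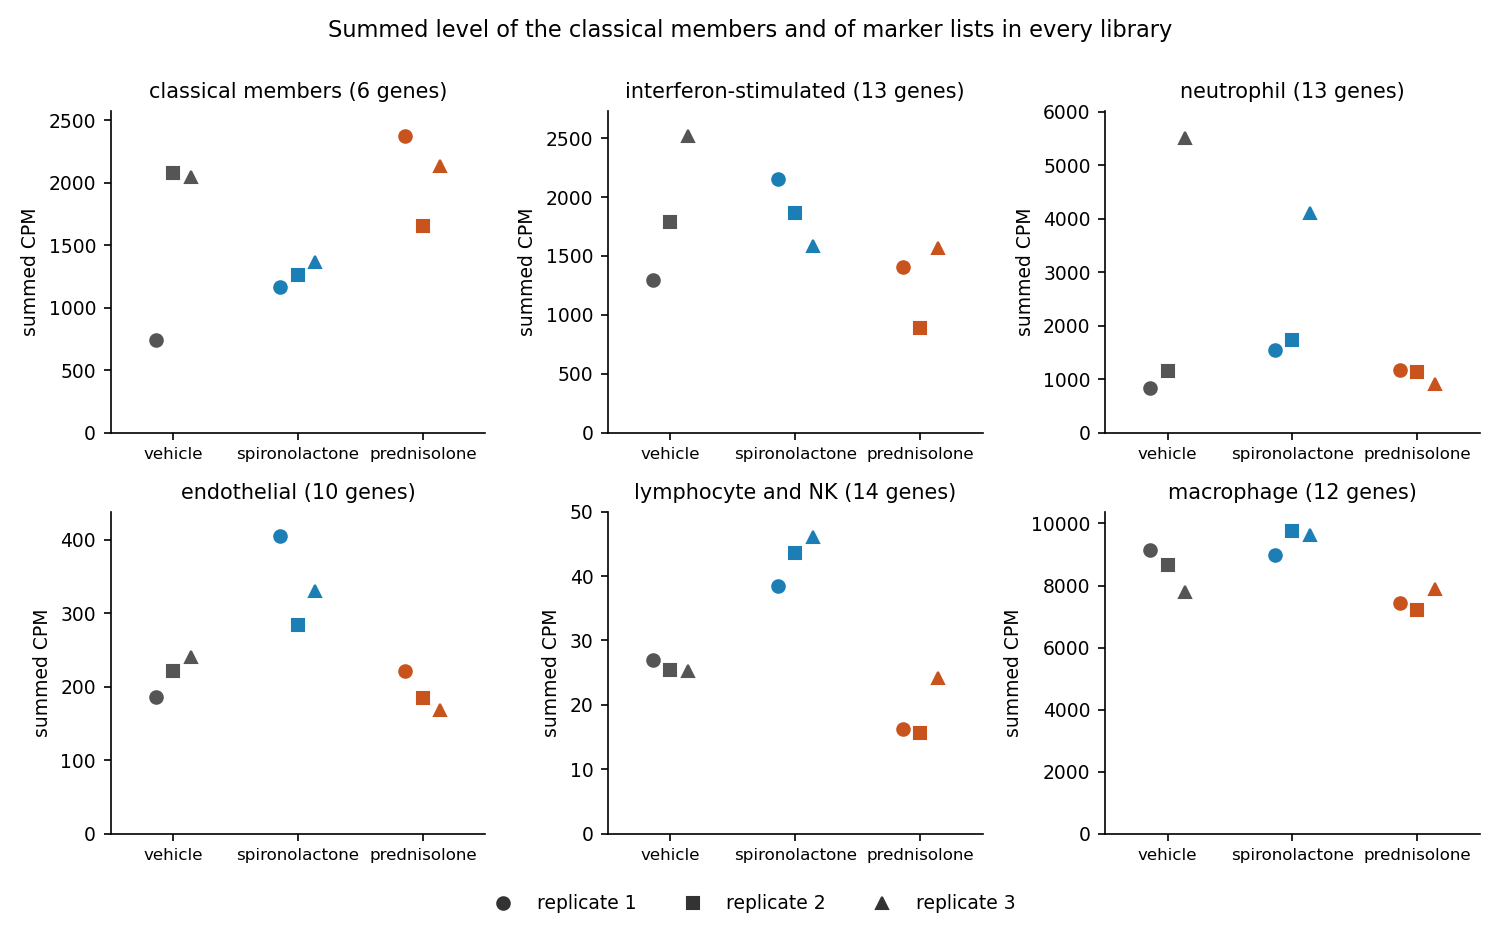
Summed CPM of the 6 classical genes and of 5 lists of marker genes in every library, by group, with a symbol for each replicate number. The interferon-stimulated list has its lowest library in prednisolone (886 CPM), the neutrophil list is high in vehicle replicate 3 (5501.9 CPM) and spironolactone replicate 3 (4110.3 CPM), and the endothelial and lymphocyte lists are higher in all spironolactone than in all other libraries.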

How the data were processed

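The authors aligned reads to mm39 with HISAT2 (2.2.1) and counted them per gene with HTSeq (0.11.3), per the labels, and the deposited values are counts, whole numbers without normalization. The deposited tables of the authors' own DESeq2 (1.32.0) comparisons were not used. Lines that name no gene (17.2% to 21.8% of counted reads) were left out. Counts were filtered with filterByExpr (minimum count 10, total 15), scaled by TMM and tested with glmQLFit (robust=TRUE) and glmQLFTest of edgeR 4.0.16 in R 4.3.3, two-sided. DESeq2 1.42.0, limma-voom (limma 3.58.1), other filters and normalizations, a replicate block, an Xist term and the fits without each library were alternatives. The test was checked on simulated data. Log2 CPM used a prior count of 2. TPM, positions, exons and promoters are from GENCODE on GRCm39, matched by symbol for all 9 genes. Named genes were the 9 members and the 5 genes most like Ly6c2 and Treml4. For each list of monocyte genes and for the paralogs, up to 4 called genes with the smallest adjusted P and the most abundant gene were named. The lists of markers of other cells were given as sums and counts. Ly6c1, Chil4, Ccr2, Nr4a1, Cx3cr1, the sort markers, listed genes at 0 counts in all libraries and genes that share bases with a member were named outside this rule. Members and lists were chosen with earlier results of these data known.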

Additional observations from a re-analysis of the deposited data

How the results depend on the processing

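The number of the 9 genes called with prednisolone against vehicle (1, Spn) was 6 without a filter on low counts, which added Ly6c2, Chil3, Plac8, Vcan and Ms4a4c, and 0 to 2 when libraries were left out singly (0 without vehicle replicate 2, prednisolone replicate 2 or prednisolone replicate 3). With spironolactone against vehicle (0 with edgeR, 1 at an unadjusted P under 0.05) it was 2 without the filter (Chil3 and Vcan) and 0 with every other tool and setting and in every fit without 1 library. Between the drugs (2, Ace and Spn) it was 4 with DESeq2 on all 9 libraries and with edgeR on the 2 groups compared, 7 without the filter, and 0 to 4 without 1 library (0 without spironolactone replicate 1 or 2 or prednisolone replicate 2 or 3, and 4 without vehicle replicate 1). Without the filter the prior df was infinite for all 9 members and in the median over genes, where the members had 0.473 to 7.47 in the main fit. The spread of a member itself then no longer entered its error. Between the drugs that setting called 5 higher and 3 lower in the list of other classical genes, and the same numbers in that of other nonclassical genes. With the replicate block the counts were 1, 0 and 2, and the same-numbered libraries correlated at -0.038 to 0.151, too weakly to take the numbers as pairs. Over all genes the counts were 239 to 1019, 0 to 528 and 635 to 1940 over the settings, and 69 to 826, 0 to 34 and 232 to 1898 without 1 library, in the order of the comparisons above.

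The sign turned for values near 0. With spironolactone against vehicle, limma-voom gave 0.017 for Ly6c2, 0.023 for Plac8 and 0.019 for Ms4a4c. Without 1 library these ranged from -0.47 to 0.12, -0.50 to 0.13 and -0.42 to 0.12, Hp from -0.60 to 0.14 and Spn from -0.0027 to 0.23. Hp between the drugs was -0.014 with the replicate block, -0.019 with the Xist term and -0.16 to 0.19 without 1 library, Treml4 -0.28 to 0.0073, and Hp with prednisolone -0.66 to 0.087. The cause was not tested.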
